A study of Mus musculus with 24 samples.

Results

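Genes known from blood vessel endothelium were followed through the sorted haematopoietic stem cell (HSC) and progenitor libraries of the TTPΔARE study. The 10 members, Kdr, Flt1, Cdh5, Plvap, Aplnr, Sox17, Tek, Tie1, Pecam1 and Emcn, were taken by gene symbol from the 55376 genes of each count file. They were chosen on their levels in these same libraries, so the levels, fold changes and calls of the 10 are given as descriptions and support no test. Of these, 6 (Kdr, Flt1, Cdh5, Plvap, Aplnr and Sox17) are treated as vascular-restricted, and 4 (Tek, Tie1, Pecam1 and Emcn) as genes that HSCs are known to use themselves.

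Bulk mRNA-seq covered 24 libraries from male mice. HSCs were sorted as Lineage-Sca1+cKit+ (LSK) CD34-Flk2-CD150+ bone marrow cells, and MPP3, a myeloid-biased multipotent progenitor, was sorted from the same compartment. The groups were young HSCs (4 Y-WT and 4 Y-TTPΔARE libraries), middle-aged HSCs (5 M-WT and 3 M-TTPΔARE) and young MPP3 (4 Y-WT and 4 Y-TTPΔARE), none with any treatment. TTPΔARE mice are homozygous for a germline deletion of the AU-rich element in the 3′ UTR of Zfp36, in every tissue, which stabilizes the mRNA of the RNA-binding protein TTP, and WT mice are littermates. Levels are CPM, read counts scaled to the size of each library, after TMM scaling, a correction for differences in RNA composition.

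Endothelial cells and HSCs arise from closely related embryonic precursors, and adult HSCs keep part of the shared programme. TEK, also called TIE2, is the receptor for angiopoietins and is carried by adult HSCs as well as by vessels. VE-cadherin (Cdh5), the diaphragm protein of fenestrated vessels (Plvap) and the VEGF receptors (Kdr and Flt1) are hallmarks of vessels, and in marrow the HSCs lie close to thin-walled sinusoids that express them. In bulk samples a change in the number of cells of a type and a change in RNA per cell cannot be told apart.

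TTP binds the heptamer TATTTAT, with U for T in RNA, in 3′ UTRs and speeds the decay of the mRNAs that carry it. The longest annotated 3′ UTR held it once in Kdr, Emcn and Flt1 and in 2 places in Pecam1, and 27.7% of 20920 protein-coding genes held at least 1 copy on the sense strand. No match was found in the 3′ UTRs of Plvap, Aplnr, Sox17, Cdh5, Tek and Tie1. The pentamer ATTTA, which lies inside the heptamer, was present in the 3′ UTR of every member, and its share over all genes was not computed. The sites are shown because they are letters through which TTP could touch the members directly, which was not tested. Each is given with 10 bases on either side and the heptamer in capitals, on the transcribed strand of GRCm38, the assembly also called mm10.
Kdr, chr5:75933165-75933191, minus strand: atggcacatcTATTTATagtctgttat
Flt1, chr5:147638582-147638608, minus strand: ttataatgctTATTTATttgaaacttg
Emcn, chr3:137430937-137430963, plus strand: ccagtgtcagTATTTATtgtttcccac
Pecam1, chr11:106655029-106655055, minus strand: cctgtgcacgTATTTATgagcctgtcc
Pecam1, chr11:106654395-106654421, minus strand: aatttttcttTATTTATtccccactaa
Zfp36, whose own AU-rich element is removed in TTPΔARE mice, carries 3 heptamers in the reference sequence, and the first is shown for comparison.
Zfp36, chr7:28376967-28376993, minus strand: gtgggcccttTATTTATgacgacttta

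The RefSeq promoter table of GRCm38.p6 held windows of 300 bases, from 250 before to 50 after the start site, for 5 of the 10 members, namely Kdr, Flt1, Tek, Tie1 and Emcn. Endothelial and HSC genes are commonly bound by ETS factors, so AGGAAG was searched on both strands and is in capitals below, read as CTTCCT where it lies on the other strand. It occurred in 2 places each in Flt1, Tie1 and Emcn, in none of the windows of Kdr and Tek, and in 35.4% of 32851 promoter windows of the same length. Kdr and Flt1 are shown as the pair of VEGF receptors whose levels part company in middle-aged HSCs, and Tie1 as the member with the highest level per length in those cells.
Kdr, chr5:75978406-75978705, minus strand: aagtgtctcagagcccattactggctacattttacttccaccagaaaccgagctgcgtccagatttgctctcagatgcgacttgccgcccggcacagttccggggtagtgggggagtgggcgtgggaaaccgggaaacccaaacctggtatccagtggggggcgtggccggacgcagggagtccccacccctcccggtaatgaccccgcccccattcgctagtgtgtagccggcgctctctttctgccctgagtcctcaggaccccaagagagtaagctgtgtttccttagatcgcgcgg
Flt1, chr5:147725962-147726261, minus strand: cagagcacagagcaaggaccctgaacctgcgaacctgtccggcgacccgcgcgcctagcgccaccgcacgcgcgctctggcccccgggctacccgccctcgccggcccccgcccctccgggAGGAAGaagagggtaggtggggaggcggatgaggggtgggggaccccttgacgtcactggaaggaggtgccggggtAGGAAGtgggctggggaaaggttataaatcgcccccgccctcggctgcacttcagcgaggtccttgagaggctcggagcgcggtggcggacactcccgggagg
Tie1, chr4:118489800-118490099, minus strand: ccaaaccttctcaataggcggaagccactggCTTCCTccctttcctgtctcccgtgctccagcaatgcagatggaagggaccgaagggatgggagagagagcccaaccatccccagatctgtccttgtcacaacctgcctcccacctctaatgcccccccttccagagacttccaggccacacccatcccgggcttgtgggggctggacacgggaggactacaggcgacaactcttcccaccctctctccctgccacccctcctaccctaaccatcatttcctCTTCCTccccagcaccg
Other motifs were searched in the same way, on both strands. The FOX:ETS composite AACAGGAA, described for vascular enhancers, was found once in Emcn, where it overlaps an ETS site, and in 2.65% of all windows. The GATA site AGATAA was found once in Tek and in 11.2% of windows. The SOX site ACAATG was found in none of the 5 member windows and in 12.6% of all windows. These matches describe letters in a window and are not evidence of binding.

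The libraries held between 24261371 and 39934554 counts. Zfp36 ranged from 32.5 to 69.2 CPM in Y-WT HSCs and from 85.4 to 105 CPM in Y-TTPΔARE HSCs, and the genotypes did not overlap at either age or in MPP3. Of the sort markers, Slamf1 and Cd48 followed the labels. Flt3, which encodes Flk2, was at 51.6 ± 9.79 CPM in Y-WT HSCs and 525 ± 56.5 CPM in Y-WT MPP3 (SD, n = 4 each). The MPP3 label was not checked against a Flk2 gate. Slamf1, which encodes CD150, was at 57.6 ± 3.03 CPM in Y-WT HSCs (SD, n = 4) and 2.35 ± 1.22 CPM in Y-WT MPP3 (SD, n = 4), while Cd48, which encodes a surface protein that HSCs lack, was at 9.51 ± 2.74 and 164 ± 63.9 CPM. Receptor genes of the olfactory and vomeronasal epithelium, outside the known repertoire of blood cells, summed to between 597 and 983 CPM in Y-WT HSC replicates 2, 3 and 4 and to between 39.2 and 405 CPM in the other HSC libraries. In MPP3 they were at 227, 20, 338 and 18.8 CPM in Y-WT and at 52.7, 59.2, 542 and 121 CPM in Y-TTPΔARE replicates 1 to 4, and their part in the results was not tested.

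Within the Y-WT HSC group the highest library was between 3.81 and 5.35 times the lowest for Kdr, Plvap, Aplnr and Cdh5, against 2.1 times for Flt1 and 2.12 times for Sox17. Kdr encodes VEGFR2, the main signalling receptor for VEGF-A. Its level in Y-WT HSCs was 94.6, 35.9, 33.8 and 130 CPM in replicates 1 to 4. Replicates 1 and 4 were thus higher than all other HSC libraries, whereas replicates 2 and 3 lay among them. The 4 Y-TTPΔARE HSC libraries held 26, 31.2, 36.5 and 28.7 CPM of Kdr. In middle-aged HSCs it was at 32.8, 38.4, 27, 32.2 and 30.4 CPM in M-WT and at 34.1, 33.1 and 32.9 CPM in M-TTPΔARE. Apart from the pair of high libraries, Kdr therefore lay between 26 and 38.4 CPM in every HSC library. Ordered by mean, it was at 73.5 ± 46.9 CPM in Y-WT HSCs (SD, n = 4), 33.4 ± 0.645 in M-TTPΔARE HSCs (n = 3), 32.2 ± 4.17 in M-WT HSCs (n = 5), 30.6 ± 4.48 in Y-TTPΔARE HSCs (n = 4), 4.3 ± 2.72 in Y-TTPΔARE MPP3 (n = 4) and 0.401 ± 0.392 in Y-WT MPP3 (n = 4). The ranges of the 4 HSC groups overlapped one another.

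Plvap, the protein of the diaphragms that span endothelial fenestrae, followed the same order within Y-WT HSCs, with 204, 49.3, 41.9 and 210 CPM. Its level in Y-TTPΔARE HSCs was 30.5, 39.5, 40.2 and 33.7 CPM, below all 4 Y-WT libraries but close to replicate 3. Middle-aged HSCs held far less of it than either young group. M-WT HSCs were at 7.03, 14.3, 12.9, 7.14 and 5.64 CPM of Plvap and M-TTPΔARE HSCs at 2.07, 5.59 and 0.889 CPM, without overlap between the genotypes.

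Cdh5 encodes the adhesion molecule that seals endothelial junctions. It was at 19.1, 5.92, 4.42 and 23.7 CPM in Y-WT HSCs and at 2.93, 4.86, 4.4 and 5.23 CPM in Y-TTPΔARE HSCs, so that the groups overlapped through replicate 3. In middle-aged HSCs its level lay between 0.617 and 1.47 CPM in M-WT and between 0.167 and 0.725 CPM in M-TTPΔARE. Aplnr, the G-protein-coupled receptor for apelin on venous and capillary endothelium, was at 38.5, 14.4, 10.1 and 31.9 CPM in Y-WT HSCs. All 4 Y-TTPΔARE HSC libraries were lower, at 7.78, 6.77, 6.77 and 5.6 CPM of Aplnr. It did not exceed 2.31 CPM in any middle-aged HSC library.

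Flt1 encodes VEGFR1, which binds VEGF-A tightly and limits its supply to VEGFR2. Its level in Y-WT HSCs was 8.18, 6.77, 8.32 and 14.2 CPM, with only replicate 4 set apart, and in Y-TTPΔARE HSCs it was 1.97, 4.53, 5.24 and 3.29 CPM. M-WT HSCs ranged from 0.332 to 0.948 CPM of Flt1, and M-TTPΔARE HSCs were at 3.24, 1.29 and 0.611 CPM. Sox17, a transcription factor of arterial endothelium and of fetal HSCs, was at 3.07, 1.94, 2.23 and 4.1 CPM in Y-WT HSCs and between 0.613 and 1.79 CPM in Y-TTPΔARE HSCs. In middle-aged HSCs it stayed between 0.0555 and 0.606 CPM.

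**Figure D1:**
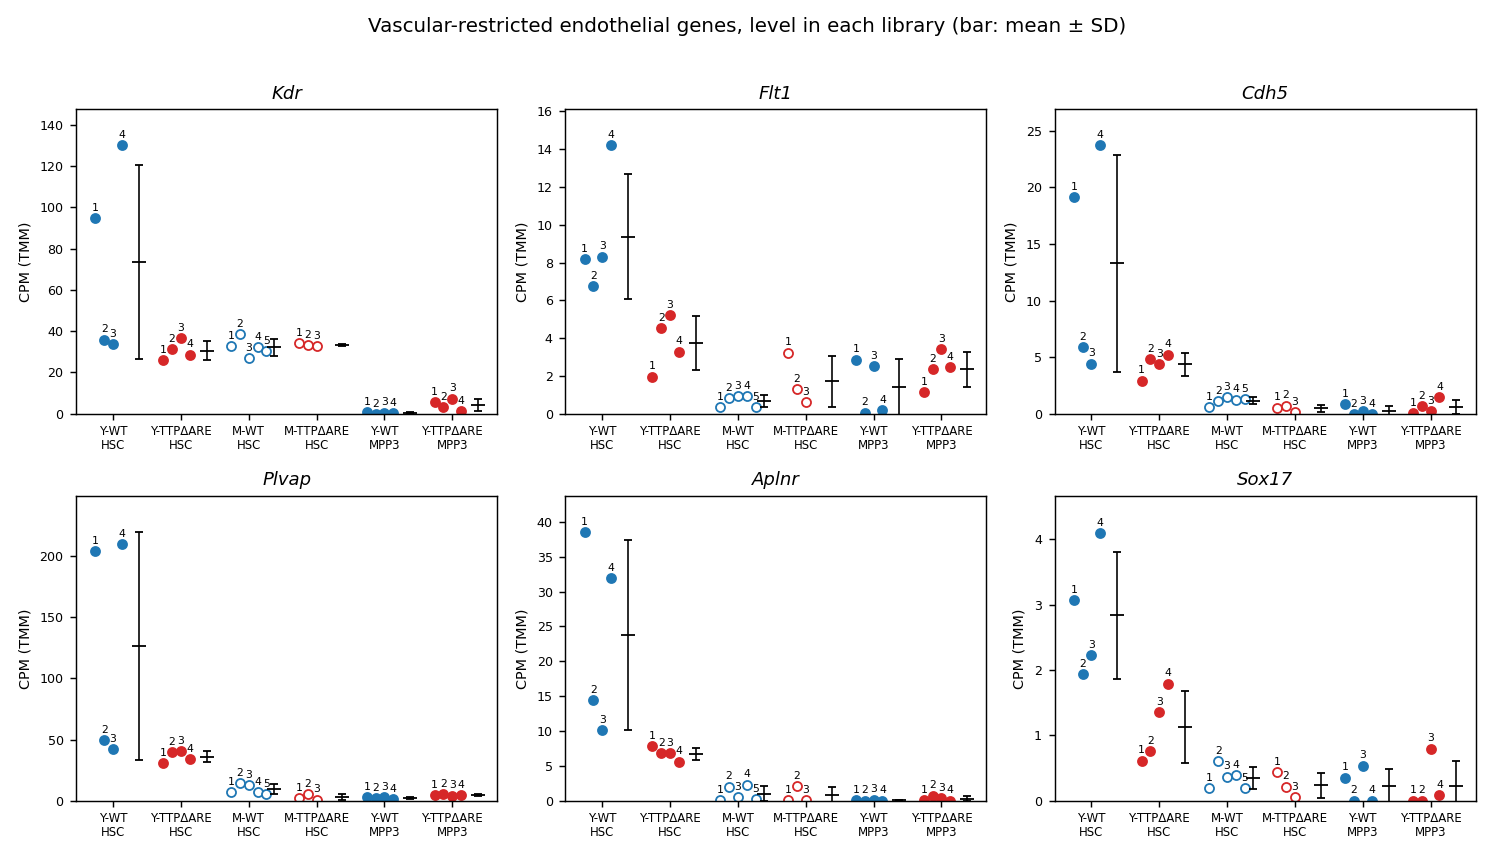
Level of the 6 vascular-restricted members in each of the 24 libraries. The vertical axis is CPM after TMM scaling on a linear scale that starts at 0, each point is 1 library with its replicate number, blue marks WT and red TTPΔARE, filled points are young and open points middle-aged, and the bar to the right of each group is the mean ± SD. Y-WT HSC replicates 1 and 4 reach 94.6 and 130 CPM of Kdr and 204 and 210 CPM of Plvap, and Kdr keeps 27 to 38.4 CPM in M-WT HSCs where Cdh5 does not pass 1.47 CPM.

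The 4 HSC-shared members varied less within the Y-WT HSC group, from 1.33 times between the lowest and the highest library for Tie1 to 1.84 times for Emcn. Tie1, an orphan receptor that modulates TEK signalling, was at 214, 184, 194 and 244 CPM in Y-WT HSCs and at 209, 213, 201 and 189 CPM in Y-TTPΔARE HSCs. Its level was higher in all 8 middle-aged HSC libraries, between 262 and 297 CPM. Tek was at 123, 97.4, 88.3 and 132 CPM in Y-WT HSCs, at 83.2, 103, 98.1 and 93.6 CPM in Y-TTPΔARE HSCs, and between 97.6 and 110 CPM in the middle-aged libraries of both genotypes. The age groups of Tek thus overlapped.

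Pecam1, or CD31, is an adhesion molecule of endothelium, platelets and leukocytes. It ranged from 61.2 to 84.8 CPM in Y-WT, 58.2 to 72.3 CPM in Y-TTPΔARE, 59.4 to 69.2 CPM in M-WT and 66.4 to 70.9 CPM in M-TTPΔARE HSCs. Emcn, an endothelial sialomucin of venous and sinusoidal vessels that is also found on HSCs, was at 66.3, 41.8, 36 and 57.1 CPM in Y-WT and between 39.9 and 48.3 CPM in Y-TTPΔARE HSCs. In the middle-aged groups it was between 31.5 and 41.5 CPM in M-WT and between 42.5 and 51.5 CPM in M-TTPΔARE, without overlap. All 4 genes had their highest Y-WT HSC values in replicates 1 and 4.

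**Figure D2:**
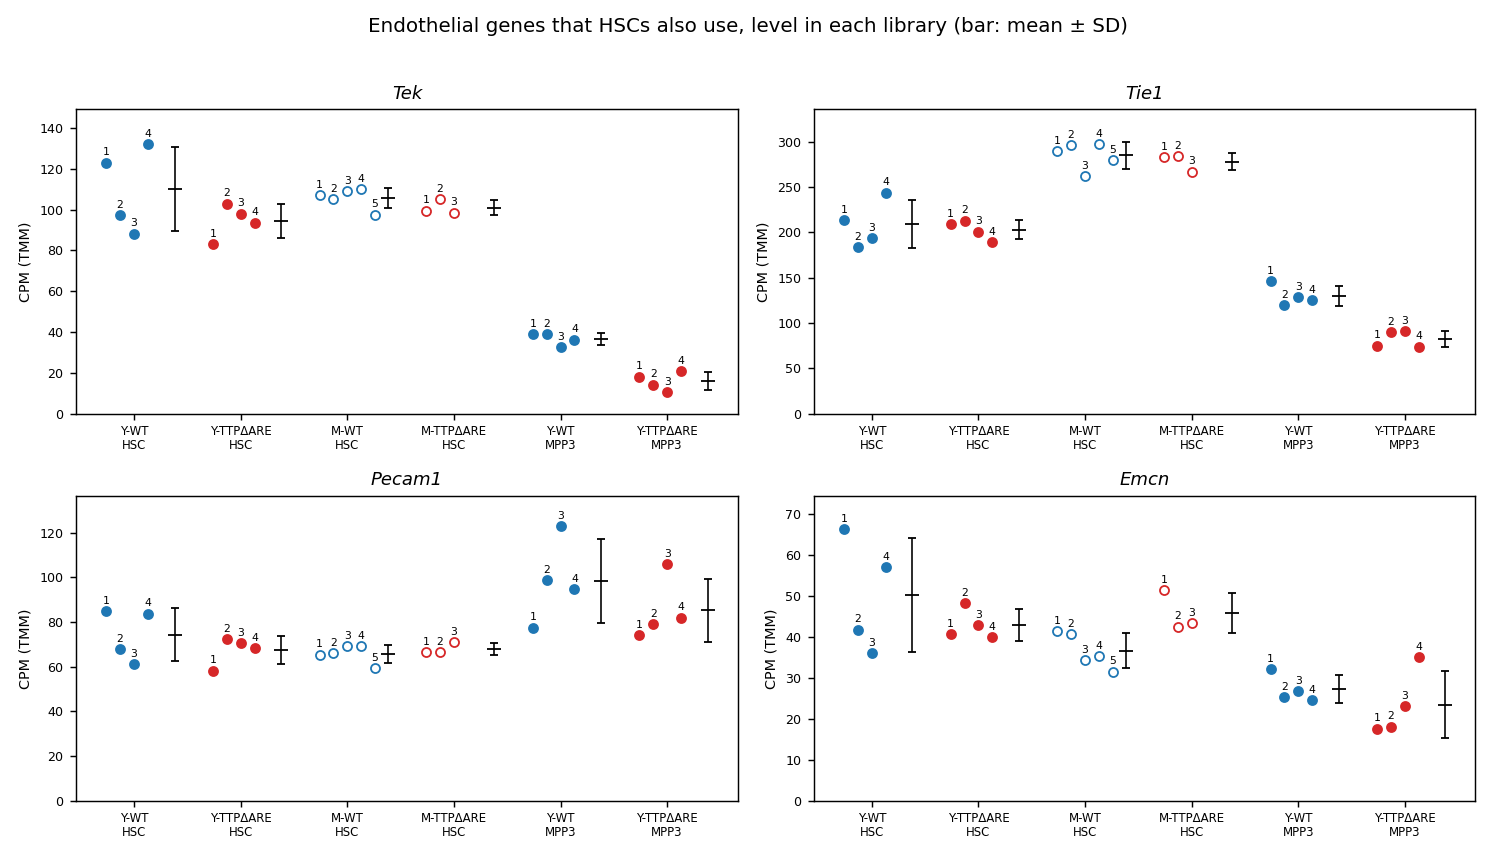
Level of Tek, Tie1, Pecam1 and Emcn in each library, in CPM after TMM scaling, with points, colours and bars as for the vascular-restricted members. Tie1 lies between 262 and 297 CPM in the middle-aged HSC libraries and between 184 and 244 CPM in the young ones, and both Tek and Tie1 are lower in the Y-TTPΔARE MPP3 libraries than in the Y-WT MPP3 libraries.

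Levels can be compared between genes only per length, here CPM per kilobase of all exons joined. In Y-WT HSCs the mean level per kilobase was 63.4 for Plvap, 42.5 for Tie1, 23.3 for Tek, 11.9 for Pecam1, 9.3 for Emcn, 8.14 for Kdr, 6.41 for Aplnr, 3.16 for Cdh5, 0.695 for Flt1 and 0.595 for Sox17. The leading place of Plvap came from replicates 1 and 4. In M-WT HSCs the order was Tie1 at 58, Tek at 22.5, Pecam1 at 10.6, Emcn at 6.78, Plvap at 4.74 and Kdr at 3.57 CPM per kilobase, with the other 4 at or below 0.274. Kdr was therefore the only vascular-restricted member besides Plvap with a mean level above 1 CPM per kilobase in middle-aged WT HSCs.

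Across the 16 HSC libraries the fitted difference between genotypes was first examined in young mice. Called genes are those with an adjusted p under 0.05 (edgeR quasi-likelihood test, Benjamini-Hochberg over all genes) whose fold change passed 1.2 and whose average logCPM passed 1.5. All 10 members had a negative log2 fold change of Y-TTPΔARE against Y-WT HSCs, with a median of -1.34 against 0.03 for all genes over the logCPM limit. The log2 fold change was -1.85 ± 0.48 (SE) for Plvap, -1.85 ± 0.37 for Aplnr, -1.65 ± 0.47 for Cdh5, -1.37 ± 0.3 for Flt1, -1.38 ± 0.41 for Sox17 and -1.3 ± 0.38 for Kdr. The shared members lay nearer to 0, at -0.27 ± 0.12 for Tek, -0.27 ± 0.17 for Emcn, -0.19 ± 0.11 for Pecam1 and -0.08 ± 0.09 for Tie1. None of the 10 was called, beside 0.0218% of genes called lower and 0.0218% called higher, and 1414 of 13786 genes had an unadjusted p under 0.05. The study itself, with edgeR and the same limits, reported many more changed transcripts in young HSCs, and it lists Kdr as lower. The reason for this gap was not tested.

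These fold changes depended on 2 of the 4 Y-WT libraries, replicates 1 and 4. For genes highest in them, leaving them out raises the fold change of Y-TTPΔARE against Y-WT by construction. The values without them are thus a description of that choice. With replicates 1 and 4 left out, a choice made after their levels were seen, the log2 fold change became -0.17 ± 0.13 for Kdr, -0.32 ± 0.13 for Plvap and -0.23 ± 0.25 for Cdh5, and the median of the 10 became -0.2. Aplnr, Flt1 and Sox17 kept larger differences, at -0.83 ± 0.2, -0.99 ± 0.33 and -0.88 ± 0.51. The Y-WT libraries left, replicates 2 and 3, held 790 and 983 CPM of olfactory and vomeronasal receptor genes. Y-TTPΔARE HSCs held 75 to 404 CPM of them, and their part in these differences was not tested. Tek, Tie1, Pecam1 and Emcn turned to small positive values between 0.05 and 0.17. Over the full set of libraries DESeq2 called Aplnr, Cdh5 and Flt1 lower, the likelihood ratio test called Aplnr, Flt1 and Plvap, and the fit without a filter on low counts called Aplnr.

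A panel of 22 other genes known from vessels, not used to choose the members, showed the same libraries apart. The panel was drawn up with earlier results of these data known, so it is a description and not an independent check. It summed to 928.5, 285, 295 and 1069 CPM in Y-WT HSC replicates 1 to 4 and to between 276 and 360 CPM in Y-TTPΔARE HSCs. All 20 panel genes that entered the fit had a negative log2 fold change (median -0.75), and none was called. Without replicates 1 and 4 the panel's median was 0.16 and 8 of 21 genes were negative, a shift that the choice of these libraries favours by construction. Relative to the mean of the Y-TTPΔARE HSCs, replicate 4 was 5.96 times as high for Stab2, a scavenger receptor of sinusoids, 6.8 times for Flt4, the VEGF-C receptor, and 6.73 times for Mmrn2, a vascular matrix protein. Replicate 2 was at 1.27, 1.66 and 1.52 times for the same genes. Fabp4, a fatty-acid carrier of capillaries, differed from these in that replicates 2 and 3, at 39.3 and 40.9 CPM, lay below all 4 Y-TTPΔARE HSC libraries (45 to 89 CPM).

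In Y-WT HSCs 9 of the 10 members had their 2 highest values in replicates 1 and 4, the exception being Flt1, as did 18 of the 19 panel genes with a mean over 1 CPM. The same was true of 29.6% of 13807 genes over the logCPM limit, and 0.855% of them were more than 2 times as high in both of these replicates as in either of the others. Kdr, Plvap, Aplnr and Cdh5 were among the latter. Replicates 1 and 4 were also the highest for 9 of the 12 endothelial genes shared with HSCs and for 6 of the 10 HSC identity genes, and the sum of the latter lay between 3395 and 3626 CPM. The 8 stromal genes summed to between 29.5 and 41.8 CPM, most of it from Pdgfrb (9.75 to 18 CPM) and Col1a2 (7.59 to 12.1 CPM). Only 1 of the 6 stromal genes with a mean over 1 CPM, Cxcl12, was highest in replicates 1 and 4. It was at 5.77, 2.11, 2.3 and 6.38 CPM in replicates 1 to 4. Pdgfrb had another order, at 9.75, 18, 17.2 and 12 CPM. The 7 megakaryocyte genes summed to between 180 and 207 CPM, led by Itga2b (73.6 to 133 CPM) and Pf4 (34 to 51.4 CPM), with Gp1bb and Gp6 under 1 CPM. The macrophage list summed to between 54.9 and 222 CPM in Y-WT HSCs, most of it from Vcam1, an adhesion molecule shared by macrophages and sinusoidal endothelium, at 30.7 to 196 CPM. The C1q genes C1qa, C1qb and C1qc had means of 2.46, 5.13 and 3.57 CPM there, and of 5.96, 10.7 and 8.65 CPM in Y-TTPΔARE HSCs. The macrophage list lay between 93.2 and 137 CPM in Y-TTPΔARE HSCs. Of its 6 genes, 5 had a positive log2 fold change between genotypes and 1 a negative one (median 1.06), and none was called. Vcam1 went the other way from the C1q genes, from 109 ± 89.5 CPM in Y-WT to 65.8 ± 14.1 CPM in Y-TTPΔARE HSCs (SD, n = 4 each). The list of 4 erythroid genes summed to between 4.56 and 7.15 CPM in Y-WT and to between 13.9 and 51.8 CPM in Y-TTPΔARE HSCs, none of them called. The part of other cell types in these differences was not tested.

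**Figure D3:**
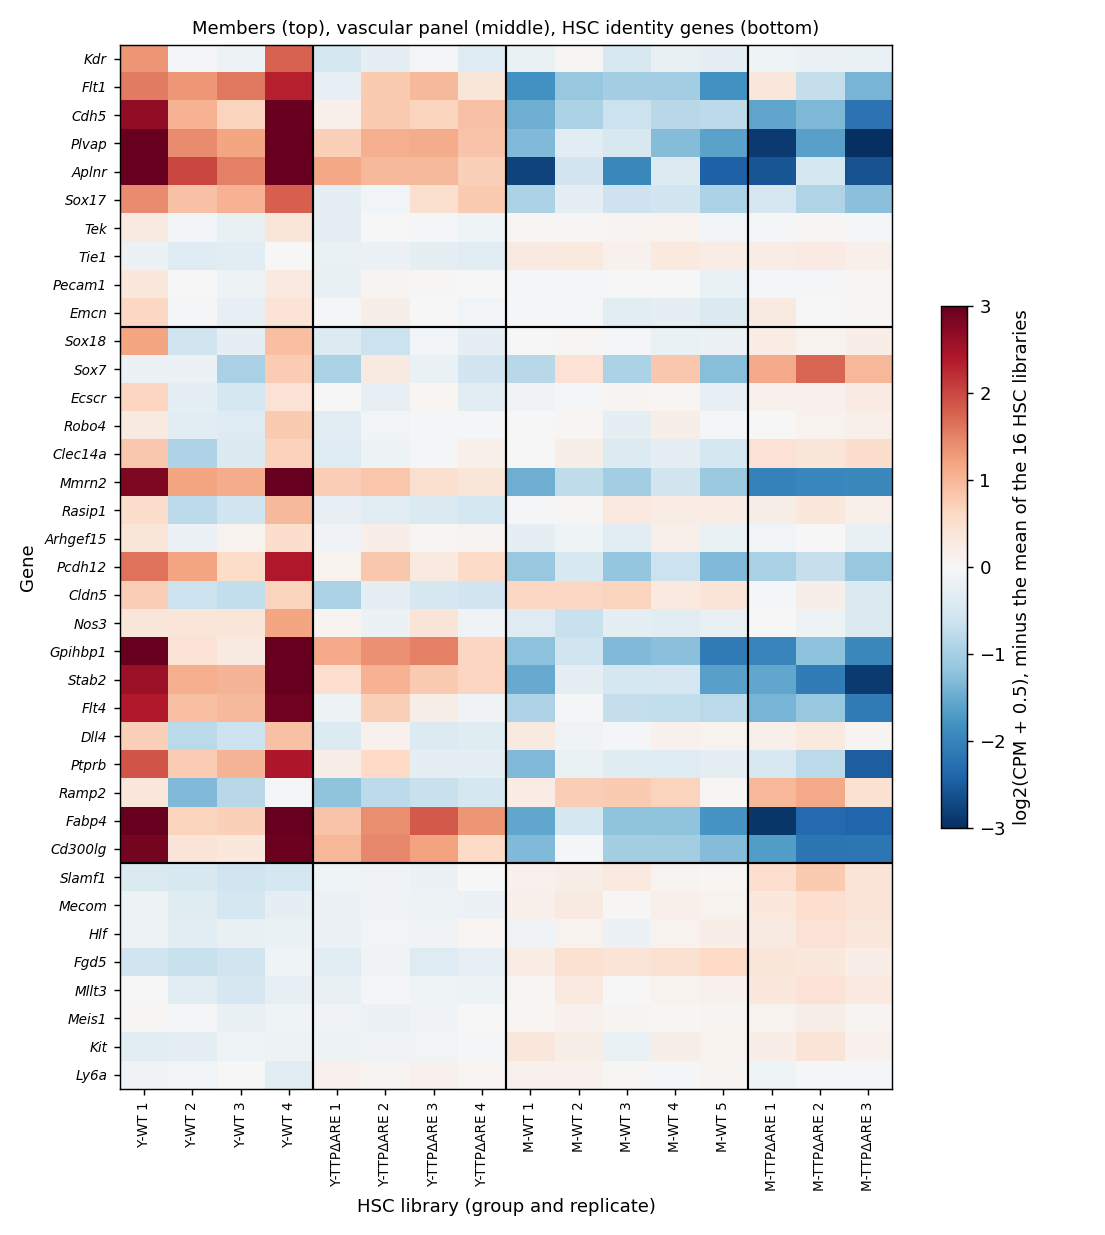
Members, vascular panel genes with a mean over 1 CPM and 8 HSC identity genes across the 16 HSC libraries. Colour is log2(CPM + 0.5) minus the gene's mean over the 16 libraries, from -3 (blue) to 3 (red), with black lines between groups and gene sets. Plvap is red in Y-WT replicates 1 and 4 (204 and 210 CPM) and blue in M-TTPΔARE (0.889 to 5.59 CPM), while Slamf1 and the other identity genes stay pale in the same Y-WT libraries.

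Genes that ran most closely with the vascular members were sought among 13655 genes over the 16 HSC libraries. The measure was Pearson's r between a gene's log2 CPM and the mean log2 CPM of Kdr, Flt1, Cdh5 and Plvap. The 10 nearest were Stab1 (r = 0.981), Pparg (r = 0.98), Kcnj8 (r = 0.98), Sparc (r = 0.979), Stab2 (r = 0.978), Gpr182 (r = 0.976), Dab2 (r = 0.974), Ushbp1 (r = 0.973), C1qtnf1 (r = 0.972) and Dnase1l3 (r = 0.972). The points share 4 groups of libraries that differ in age and in the library sets, so r describes the order of libraries and nothing more. Stab2 is also in the panel, and the other 9 are in none of the lists. Stab1 and Stab2 are scavenger receptors known from sinusoidal endothelium, and Gpr182 is a chemokine-scavenging receptor of the same vessels. Stab1 was at 39.2, 19.7, 16.3 and 54.7 CPM in Y-WT HSC replicates 1 to 4, between 11 and 14 CPM in Y-TTPΔARE HSCs and between 5.39 and 8.09 CPM in M-WT HSCs. Sparc, a secreted matrix protein, was at 175, 44.6, 35.6 and 187 CPM in Y-WT HSCs and did not exceed 7.48 CPM in middle-aged HSCs.

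Tek had other and weaker neighbours, Sema6b (r = 0.901), Syn3 (r = 0.868), Cldn5 (r = 0.861), Map1b (r = 0.857) and Timp3 (r = 0.854). Cldn5, a tight-junction protein of vessels that is also in the panel, was at 50.3, 18.7, 17.5 and 47.9 CPM in Y-WT HSCs and between 36.8 and 47.7 CPM in M-WT HSCs. M-TTPΔARE HSCs held less of it, between 22 and 33.6 CPM.

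In middle-aged HSCs none of the 10 members was called between genotypes, beside 1.10% of genes called higher and 1.12% called lower. The members' median log2 fold change was -0.1. Kdr was at 0.01 ± 0.1, Pecam1 at 0 ± 0.07, Tie1 at -0.08 ± 0.05, Tek at -0.11 ± 0.05 and Emcn at 0.27 ± 0.1. Plvap had a log2 fold change of -1.77 ± 0.51. It was called when M-TTPΔARE replicate 2 was left out, when no filter on low counts was used and by the likelihood ratio test. Cdh5, Aplnr, Sox17 and Flt1 lay under the logCPM limit, with values from -1.31 ± 0.49 for Cdh5 to 1.29 ± 0.54 for Flt1.

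Of the 22 panel genes, 20 entered the fit of middle-aged HSCs and 2 were called, both lower in M-TTPΔARE. Fabp4 fell by 1.47 ± 0.28 on the log2 scale (edgeR adjusted p = 0.0273), from 10.5 ± 3.85 to 3.89 ± 0.924 CPM (SD, n = 5 and 3). Cldn5 fell by 0.66 ± 0.13 (edgeR adjusted p = 0.0368), from 43 ± 4.76 to 28.2 ± 5.84 CPM. The call of Fabp4 was lost when any 1 of the 3 M-TTPΔARE libraries was left out. That of Cldn5 held in 2 of 8 such fits, without M-WT replicate 4 and without M-TTPΔARE replicate 2. Among genes of endothelium that HSCs also use, Procr, the protein C receptor that marks HSCs, rose by 0.38 ± 0.06 (edgeR adjusted p = 0.0115). Selp, the P-selectin gene, fell by 0.68 ± 0.15 (edgeR adjusted p = 0.047), and Cd34 fell by 0.74 ± 0.09 (edgeR adjusted p = 0.00252). Vegfa, the ligand of KDR and FLT1, rose by 0.55 ± 0.12 (edgeR adjusted p = 0.0458), from 8.96 ± 0.637 to 13.5 ± 1.72 CPM.

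The test of whether the genotype difference itself changed with age called none of the 10 members, beside 0.0439% of genes. The interaction, in log2 units of the middle-aged minus the young genotype difference, was 1.26 ± 0.43 for Kdr and 2.6 ± 0.62 for Flt1. Without Y-WT HSC replicates 1 and 4 it was 0.09 ± 0.17 for Kdr and 2.19 ± 0.69 for Flt1. For genes high in them, that choice lowers the interaction by construction. DESeq2 and the likelihood ratio test called Flt1. No panel gene was called, although 19 of 21 had a positive interaction.

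WT HSCs of both ages were compared next. Against 13.7% of genes called higher and 6.03% called lower in M-WT, 5 members were lower and 1 was higher. The log2 fold change of M-WT against Y-WT HSCs was -4.59 ± 0.76 for Aplnr, -3.82 ± 0.35 for Flt1, -3.75 ± 0.52 for Plvap, -3.54 ± 0.48 for Cdh5 and -1.19 ± 0.35 for Kdr. Sox17, under the logCPM limit, was at -3.02 ± 0.41. Tie1 was the member called higher, at 0.44 ± 0.08, while Tek (-0.07 ± 0.1), Pecam1 (-0.18 ± 0.09) and Emcn (-0.46 ± 0.16) were not called. The sample titles number the young and the middle-aged HSC libraries as separate sets, so age and set cannot be told apart. The macrophage list differed with age as well, from between 54.9 and 222 CPM in Y-WT to between 20.6 and 35.5 CPM in M-WT HSCs, and its part in the result was not tested.

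Part of this age difference did not rest on Y-WT HSC replicates 1 and 4. Without them Plvap was at -2.29 ± 0.31, Aplnr at -3.64 ± 0.87, Flt1 at -3.51 ± 0.39 and Tie1 at 0.58 ± 0.07, and these 4 were still called, beside 17.7% of genes called higher and 5.60% called lower. Kdr moved to -0.13 ± 0.13 and was no longer called, and Cdh5, at -2.19 ± 0.3, then lay under the logCPM limit. In that fit Y-WT replicates 2 and 3 held 790 and 983 CPM of olfactory and vomeronasal receptor genes. M-WT HSCs held 39.2 to 209 CPM of them, and their part was not tested. With 1 library left out at a time, the call of Kdr held in 3 of 9 fits, those without Y-WT HSC replicate 1, 2 or 3, and its smallest change was -0.77 ± 0.29, without replicate 4. Kdr thus departed from the other vascular-restricted members, in that its M-WT levels (27 to 38.4 CPM) took in those of Y-WT replicates 2 and 3 (35.9 and 33.8 CPM).

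The panel was followed in the same way. In M-WT HSCs 7 of its 22 genes were called lower than in Y-WT HSCs, led by Gpihbp1 at -4.27 ± 0.73 (edgeR adjusted p = 0.00359), Fabp4 at -3.99 ± 0.63 (edgeR adjusted p = 0.00226), Mmrn2 at -3.62 ± 0.46 (edgeR adjusted p = 0.000741) and Cd300lg at -3.45 ± 0.65 (edgeR adjusted p = 0.00533). None was called higher. Without Y-WT replicates 1 and 4, 5 panel genes were called lower (Fabp4, Stab2, Ptprb, Flt4 and Mmrn2) and 6 were called higher (Ramp2, Cldn5, Rasip1, Dll4, Robo4 and Ecscr). Those libraries were left out because their vascular levels were high. For genes highest in them, this raises the fold change of M-WT against Y-WT by construction. The 6 calls higher are thus a description of that choice and support no rise with age. Ramp2, a co-receptor for adrenomedullin, went to 1.61 ± 0.24 and Cldn5 to 1.24 ± 0.13 in that fit. Among the 12 endothelial genes shared with HSCs, 6 were called higher and 2 lower in M-WT over all libraries. Vwf, the clotting factor of endothelium and platelets that marks a platelet-biased HSC subset, rose by 1.94 ± 0.09 (edgeR adjusted p = 5.8e-06), and Selp rose by 1.97 ± 0.15 (edgeR adjusted p = 3.82e-05).

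**Figure D4:**
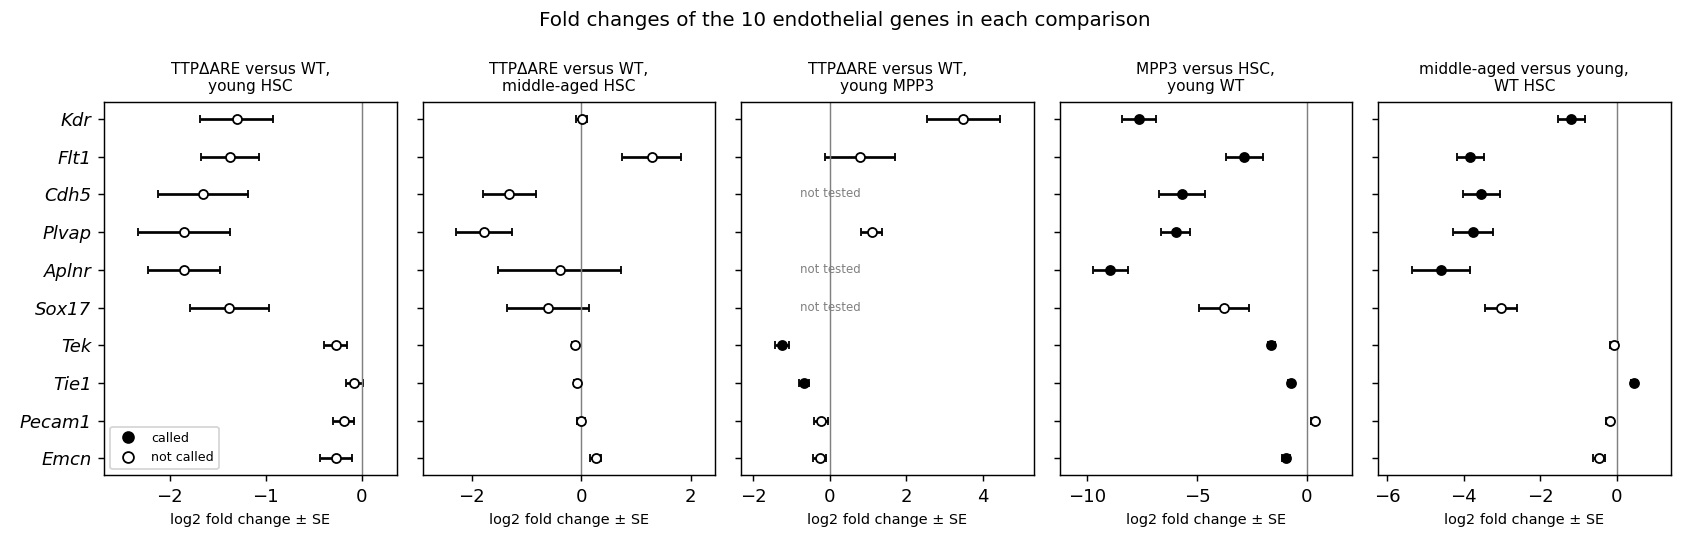
Log2 fold change of the 10 members in 5 comparisons, in the direction of each title. Points are edgeR estimates and bars their standard errors on the horizontal axis, filled points passed the call limits and open points did not, and the horizontal scale differs between panels. All 10 members are open and left of 0 in young HSCs (median -1.34), and Tek and Tie1 are the only filled points in MPP3, at -1.26 and -0.68.

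MPP3 cells held little of the vascular-restricted genes. In the 4 Y-WT MPP3 libraries Kdr was at 0.846, 0, 0.603 and 0.156 CPM, Flt1 at 2.86, 0.0578, 2.51 and 0.207 CPM, Plvap between 1.24 and 2.86 CPM, and Aplnr at or below 0.134 CPM. Replicates 1 and 3, the higher in Kdr and Flt1, were also the higher in olfactory and vomeronasal receptor genes. Of the HSC-shared members, Tie1 was at 130 ± 11.2, Tek at 36.8 ± 2.96, Emcn at 27.2 ± 3.43 and Pecam1 at 98.5 ± 18.8 CPM (SD, n = 4). Of the 10 members, 8 were called lower in Y-WT MPP3 than in Y-WT HSCs, beside 13.1% of genes called lower and 24.7% called higher. The titles number the young HSC and MPP3 libraries as separate sets too, so cell type and set cannot be told apart. The log2 fold change was -1.62 ± 0.16 for Tek, -0.73 ± 0.11 for Tie1 and -0.94 ± 0.2 for Emcn. It was -7.66 ± 0.78 for Kdr, -5.97 ± 0.67 for Plvap and -8.95 ± 0.78 for Aplnr. For Cdh5 it was -5.69 ± 1.06 and for Flt1 -2.84 ± 0.86. Kdr, Aplnr and Cdh5 had at most 25 reads in any Y-WT MPP3 library, so the sizes of their changes are uncertain. Pecam1 (0.36 ± 0.17) was not called and Sox17 lay under the logCPM limit. Without Y-WT HSC replicates 1 and 4, 6 members were called lower, beside 5.97% of genes, and Cdh5 (-4.19 ± 1.51) and Flt1 (-2.44 ± 1.17) were not. The call of Flt1 held in 2 of 8 fits with 1 library left out, those without Y-WT MPP3 replicate 1 or 2.

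All 16 panel genes over the logCPM limit were called lower in Y-WT MPP3, and the 4 with the largest changes were Mmrn2 at -7.3 ± 0.94 (edgeR adjusted p = 0.000592), Gpihbp1 at -6.89 ± 1.21 (edgeR adjusted p = 0.00299), Cldn5 at -6.16 ± 0.66 (edgeR adjusted p = 0.000222) and Fabp4 at -5.62 ± 0.85 (edgeR adjusted p = 0.00139). Of the panel, 11 were called lower without Y-WT HSC replicates 1 and 4. Of the 12 endothelial genes shared with HSCs, 7 were called lower and 1 higher in Y-WT MPP3. Of the 10 HSC identity genes, 6 were called lower and 0 higher. Vwf, for example, was at 100 ± 8.96 CPM in Y-WT HSCs and 7.55 ± 2.27 CPM in Y-WT MPP3 (SD, n = 4 each). Cd34, whose protein is absent from the HSC gate, was the gene of the shared list called higher in MPP3, by 2.27 ± 0.12 (edgeR adjusted p = 1.25e-05).

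Between genotypes in MPP3, Tek and Tie1 were the members with a called difference. Tek was at 39, 39.1, 32.8 and 36.3 CPM in Y-WT MPP3 and at 18.2, 14.3, 10.5 and 20.8 CPM in Y-TTPΔARE MPP3. The groups did not overlap, and the log2 fold change was -1.26 ± 0.18. Tie1 was at 146, 120, 129 and 125 CPM in Y-WT and at 75.1, 89.8, 90.9 and 74 CPM in Y-TTPΔARE MPP3, a log2 fold change of -0.68 ± 0.14. These were the 2 members called, beside 0.202% of genes called lower and 2.33% called higher. Of the 12 endothelial genes shared with HSCs, 8 had a negative and 4 a positive log2 fold change (median -0.22). Of the 10 HSC identity genes, 6 were negative and 4 positive (median -0.2), and no gene of either list was called. Fli1 went from between 189 and 202 to between 141 and 154 CPM in Y-TTPΔARE MPP3. Egfl7 went from between 95 and 122 to between 125 and 209 CPM. Tek was called in each of the 8 fits with 1 library left out, and Tie1 in the 1 without Y-TTPΔARE MPP3 replicate 4. Neither 3′ UTR holds the heptamer printed above for other members, while its inner pentamer ATTTA occurs in 3 places in Tek and 1 in Tie1. A direct action of TTP on either was not tested.

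Kdr had the opposite direction in MPP3, at 0.846, 0, 0.603 and 0.156 CPM in Y-WT and 5.58, 3.04, 7.37 and 1.2 CPM in Y-TTPΔARE libraries. Every TTPΔARE library was higher than every WT library, but the gene lay under the logCPM limit and was not called, at a log2 fold change of 3.49 ± 0.95. Plvap had 2.86, 1.85, 2.58 and 1.24 CPM in Y-WT and 4.23, 5.18, 4.19 and 4.66 CPM in Y-TTPΔARE MPP3, a log2 fold change of 1.09 ± 0.28 that was not called, although DESeq2 and the likelihood ratio test called it. Pecam1 (-0.24 ± 0.18) and Emcn (-0.27 ± 0.17) overlapped between genotypes. Aplnr, Cdh5 and Sox17 were too low in MPP3 to enter the fit.

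Of 17 panel genes tested in MPP3, 14 had a positive log2 fold change (median 0.94) and 1 was called. Cd300lg, known from capillary endothelium, rose by 2.8 ± 0.44 (edgeR adjusted p = 0.00866), from 0.799 ± 0.443 to 5.77 ± 2.64 CPM (SD, n = 4 and 4). Its call was lost when any 1 of the 4 Y-TTPΔARE MPP3 libraries was left out. Among the ligands and partners of the member receptors, Nrp1, the neuropilin that serves as a co-receptor of KDR, rose by 2.27 ± 0.3 (edgeR adjusted p = 0.00323), from 4.93 ± 1.8 to 23.5 ± 5.52 CPM. The macrophage list moved with these genes, from between 58.8 and 158 CPM in Y-WT to between 247 and 505 CPM in Y-TTPΔARE MPP3. Vcam1 went from 26 ± 18.6 to 95.7 ± 18.4 CPM. All 6 macrophage genes had a mean over 1 CPM in both groups. The erythroid list went from between 3.35 and 6.77 to between 11.8 and 58 CPM, without overlap, and 1 of its 4 genes was called higher. The part of either list in the rise was not tested.

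The genotype difference was then compared between cell types within young mice. The interaction, in log2 units of the MPP3 minus the HSC genotype difference, was 4.69 ± 0.93 for Kdr, which was the 1 member called, beside 0.839% of genes. The call was lost in 8 of the 16 fits with 1 library left out (Y-WT HSC replicate 4, any Y-TTPΔARE HSC library, Y-WT MPP3 replicate 4, and Y-TTPΔARE MPP3 replicates 1 and 3) and when Y-WT HSC replicates 1 and 4 were left out together (3.73 ± 0.92). Plvap was at 2.88 ± 0.63, Aplnr at 4.36 ± 1.18, Tek at -1.07 ± 0.26 and Tie1 at -0.7 ± 0.17, none of them called. Tek was called by DESeq2, by the likelihood ratio test, without Y-WT HSC replicates 1 and 4, without Y-WT MPP3 replicate 3 and without Y-TTPΔARE MPP3 replicate 1. DESeq2 called Plvap, Aplnr and Tie1 as well. No panel gene was called. Nrp1 had an interaction of 3.36 ± 0.54 (edgeR adjusted p = 0.00726).

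The ligands were found in the sorted libraries at very different levels, and which cells their RNA came from was not tested. Angpt1, the ligand of TEK, was at 875 ± 76.2 CPM in Y-WT HSCs, 1010 ± 44.1 CPM in Y-TTPΔARE HSCs and 716 ± 109 CPM in Y-WT MPP3 (SD, n = 4 each), and was not called in any comparison of the 7. Vegfb and Vegfc were at 25.9 ± 3.22 and 22.8 ± 4.44 CPM in Y-WT HSCs. Vegfd and Apela, an apelin-receptor ligand, had means of 0.343 and 0.124 CPM there.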

How the data were processed

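RNA-seq was analysed for 24 libraries. The deposited values are raw counts per gene symbol, which the authors made by trimming with Cutadapt, alignment to mm10 with STAR and counting with featureCounts on GENCODE M22. Strand and multimapping settings are not given in the sources used here. The labels and the study's methods name different library kits, which was not settled. Nothing in the labels ties libraries to separate animals, so p-values measure the spread between these libraries, which may be technical.

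From the counts, CPM with TMM factors were computed in R 4.3.3 with edgeR 4.0.16. Genes were kept by filterByExpr (minimum count 10, minimum total 15) and compared by the quasi-likelihood F test within the groups of each comparison, with Benjamini-Hochberg adjustment over all genes tested. Calls needed an adjusted p under 0.05, an average logCPM over 1.5 and, except for interactions, a fold over 1.2. The standard error is the log2 fold change divided by the square root of F. These limits and edgeR come from the study's methods, which leave the choice among its tests open. The study left out 1 Y-TTPΔARE MPP3 library without naming it, and all 4 are used here. The tests were also run on simulated counts, drawn with the same spread for every gene and without libraries that stand apart. Y-WT HSCs differ from that setting, so the simulation does not check the calls that involve them. DESeq2 1.42.0, other scaling factors, the likelihood ratio test, other limits, a replicate block and each library left out were the alternatives.

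The members, lists and rules were chosen with earlier results of these data known. Named genes are all members, called genes of some of the lists (up to 4 in each direction with the largest change) and the pattern neighbours. Other genes were named after their values were seen, as markers or for a library's level. Gene models and 3′ UTRs are from GENCODE M21, another release than the one counted, and promoters from RefSeq. Replicate numbers did not pair the libraries: in none of 4 comparisons were all same-numbered libraries correlated above 0.1 in their deviations from group means (lowest r -0.09, highest 0.28).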

Additional observations from a re-analysis of the deposited data

Results flagged for a closer look

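The difference in genotype effect between young MPP3 and young HSCs was called for Kdr, by an interaction term in edgeR's fit of 16 libraries, with a log2 difference of 4.69 ± 0.93. Kdr was at 0.401 ± 0.392 CPM in Y-WT MPP3 and 4.3 ± 2.72 CPM in Y-TTPΔARE MPP3, and at 73.5 ± 46.9 and 30.6 ± 4.48 CPM in the HSCs of the same genotypes (SD, n = 4 each). The gene was chosen with these levels known, so the value is a description.

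Sox17 in Y-TTPΔARE MPP3 replicate 3, at 0.795 CPM, stood apart from the other 3 libraries of its group (0, 0 and 0.0856 CPM) by Dixon's criterion. The same library held 542 CPM of olfactory and vomeronasal receptor genes, against 52.7 to 121 CPM in the other 3, and its part in the value was not tested. Sox17 was the 1 case among 50 sets of member values examined, where chance gives about 1 in 20. Y-WT HSC replicates 1 and 4, which carry the high vascular levels, did not meet this criterion because they stand apart together.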

How the results depend on the processing

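The members called in young HSCs, 0, became 3 with DESeq2, 3 with the likelihood ratio test and 1 without a filter, and the panel's 0 became 3, 4 and 3. In middle-aged HSCs the members' 0 became 1 with the likelihood ratio test and 1 without a filter (0 to 1 with 1 library left out), and the panel's 2 became 5, 4 and 5 with DESeq2, the likelihood ratio test and no filter (0 to 2). In MPP3 the members' 2 became 3 with DESeq2 and 3 with the likelihood ratio test (1 to 2 with 1 library left out), and the panel's 1 (0 to 1) became 3 with DESeq2, 2 with the likelihood ratio test and 2 without a filter. Other calls from the panel were 11 between ages and 1 in the age interaction without Y-WT HSC replicates 1 and 4, chosen after the data were seen. The age interaction of the members went from 0 to 1 with DESeq2 and with the likelihood ratio test. In the cell type interaction the members' 1 became 2 with RLE factors, 2 with upper-quartile factors, 5 with DESeq2 and 4 with the likelihood ratio test (0 to 2), and the panel's 0 became 1, 1, 4 and 3 (0 to 1). The causes were not tested.

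With the replicate number as a block, 1 member was called in MPP3 (Tek) and 1 panel gene in middle-aged HSCs (Fabp4), and the block moved no other count of calls by over 1.5 times. Replicate numbers did not pair the libraries, and every library correlated best with its own number in no comparison. Of 1185 member fold changes refitted, 72 moved by more than their standard error, 38 of them without Y-WT HSC replicates 1 and 4, and no called value changed sign. All 10 neighbours of the vascular members were shared at a prior count of 0.5. At the low counts of Aplnr, Cdh5, Sox17 and Flt1 in middle-aged HSCs and MPP3, small differences could not be detected.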
